A study of Mus musculus with 38 samples.

Results

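A set of 10 regulators of hair follicle differentiation was followed across mouse tail skin: the secreted signals Shh and Wnt10b and the transcription factors Lef1, Msx2, Dlx3, Foxn1, Ovol1, Gata3, Prdm1 and Vdr. They were taken by symbol, as 10 of the 19218 genes of the count table, from a list drawn up with earlier results of these data known. All 10 had counts in every library and passed the filter on low counts in every comparison. Shh was the scarcest, with 6 to 80 counts per library, and Dlx3 reached 817 to 5141 counts.

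The series measured tail skin by bulk RNA sequencing in 38 libraries, to compare skin with and without induction of vitiligo, with and without depletion of gut microbes by ABX, and after hippuric acid, a glycine conjugate of benzoic acid. The 4 main groups cross vitiligo induction with ABX. There were 6 libraries with induction and ABX (vitiligo_ABX), 9 with induction alone (vitiligo), 6 with ABX and no induction (no_induction_ABX) and 9 with neither (no_induction). A further 5 libraries came from wild type mice injected intraperitoneally with hippuric acid (hippuric_acid) and 3 from mice given its vehicle (vehicle). Strain, age, the way vitiligo was induced and the composition of ABX were not given in the labels, nor was it stated whether libraries came from separate mice, so a p-value here covers library-to-library spread, which may be technical. Library totals ran from 15341831 to 27920844 counts.

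Hair is built by matrix cells at the base of the follicle, which divide, leave the cell cycle and fill with hair keratins and keratin-associated proteins, the Krtap products that cross-link keratin filaments in the shaft. WNT and Hedgehog signals keep the matrix growing, and LEF1, MSX2, DLX3 and FOXN1 act in the cells that turn to shaft production, while GATA3 specifies the inner root sheath that moulds the shaft. Krtap RNA is therefore a common measure of shaft production in skin, and its sum over 46 Krtap genes, in CPM (counts scaled to a common library size), was set beside the regulators.

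The promoter windows of 2 regulators and 2 Krtap genes are shown first, because Krtap17-1 and Krtap3-3 had correlations of opposite sign with Msx2 and Lef1, described further on. Each window runs from 250 bases before to 50 bases after the gene start, 5′ to 3′ on the gene's strand (the minus strand for all 4), as given by RefSeq for GRCm38.p6. Foxn1 lies at chr11:78386559-78386858, Msx2 at chr13:53472731-53473030, Krtap17-1 at chr11:99993945-99994244 and Krtap3-3 at chr11:99550814-99551113. Capitals mark TAATT, the core read by homeodomain proteins such as MSX2 and DLX3, or AATTA, the same core on the other strand, which overlap in TAATTA.
Foxn1 promoter: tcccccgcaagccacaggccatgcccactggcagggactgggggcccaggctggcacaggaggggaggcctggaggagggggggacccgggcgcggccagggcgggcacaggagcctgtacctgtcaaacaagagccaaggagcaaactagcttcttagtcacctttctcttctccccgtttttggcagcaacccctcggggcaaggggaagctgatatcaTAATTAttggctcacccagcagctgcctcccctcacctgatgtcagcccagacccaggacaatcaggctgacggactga
Msx2 promoter: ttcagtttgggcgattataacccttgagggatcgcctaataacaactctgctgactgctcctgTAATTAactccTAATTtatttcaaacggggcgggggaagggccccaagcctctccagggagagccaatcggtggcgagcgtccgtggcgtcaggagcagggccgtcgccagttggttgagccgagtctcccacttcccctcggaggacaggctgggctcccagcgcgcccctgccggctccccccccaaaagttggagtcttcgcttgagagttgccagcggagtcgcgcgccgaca
Krtap17-1 promoter: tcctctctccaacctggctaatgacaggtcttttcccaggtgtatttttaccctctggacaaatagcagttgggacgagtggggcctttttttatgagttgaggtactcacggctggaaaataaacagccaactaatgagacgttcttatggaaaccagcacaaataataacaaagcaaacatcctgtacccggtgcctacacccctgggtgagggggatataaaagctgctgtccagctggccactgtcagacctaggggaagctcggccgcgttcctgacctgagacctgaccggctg
Krtap3-3 promoter: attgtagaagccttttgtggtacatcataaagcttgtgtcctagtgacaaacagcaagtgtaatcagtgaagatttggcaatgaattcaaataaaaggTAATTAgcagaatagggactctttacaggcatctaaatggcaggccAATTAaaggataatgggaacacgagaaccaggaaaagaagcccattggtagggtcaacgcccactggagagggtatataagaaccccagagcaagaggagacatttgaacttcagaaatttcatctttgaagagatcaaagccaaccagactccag
The core occurred in 27.0% of the 32851 promoter entries of the table and in 66.7% of its 51 Krtap entries. Of the 7 regulators with an entry, Foxn1, Msx2 and Lef1 held it. It was in the Krtap3-3 window and not in the Krtap17-1 window. The LEF1 core CTTTGA, read on both strands, was in 16.0% of all entries and 29.4% of Krtap entries, and the TATA box TATAAA, also read on both strands, in 13.6% of all entries and 82.4% of Krtap entries. The GATA core AGATAA was in 11.2% of all entries and 21.6% of Krtap entries. Other cores were no more frequent in Krtap entries, all read on both strands: the FOXN1 core GACGC was in 27.2% of all entries and 5.88% of Krtap entries, the OVOL core CCGTTA in 2.76% and 0%, and the PRDM1 core GAAAGT in 14.3% and 13.7%. The Krtap entries and all entries were not matched for base composition, on which the share of any such core depends. These matches describe letters in a window and say nothing of binding.

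Per kilobase of exon, the mean level over all libraries ran from 0.668 CPM per kilobase for Shh, the ligand that drives follicle growth, to 63.5 for Dlx3, a homeobox factor needed for shaft formation. Ovol1, a zinc finger repressor of proliferation genes, stood at 32.2 CPM per kilobase and Foxn1, the forkhead factor lost in nude mice, at 30.6. Vdr, the vitamin D receptor that postnatal hair cycling depends on, stood at 27.1, Msx2, a homeobox factor of matrix and shaft, at 20.9 and Gata3 at 14.04. Prdm1, the repressor BLIMP1, found in differentiating keratinocytes and sebaceous gland, stood at 10.9. The ligand Wnt10b stood at 4.27 and Lef1, the DNA-binding partner of beta-catenin, at 3.89.

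Of the 6 groups, no_induction_ABX had the lowest mean CPM of 8 of the 10 regulators, and vitiligo had the lowest of Shh and Vdr. The highest mean was in vitiligo_ABX for 6 (Shh, Wnt10b, Lef1, Msx2, Dlx3 and Vdr) and in no_induction for 4 (Foxn1, Ovol1, Gata3 and Prdm1). With the groups of each gene in order of their means, the ranges of neighbouring groups overlapped in 50 of 50 cases. In 3 of them the means differed by more than the larger SD, each time vitiligo above no_induction_ABX (Foxn1, Dlx3 and Ovol1).

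**Figure D1:**
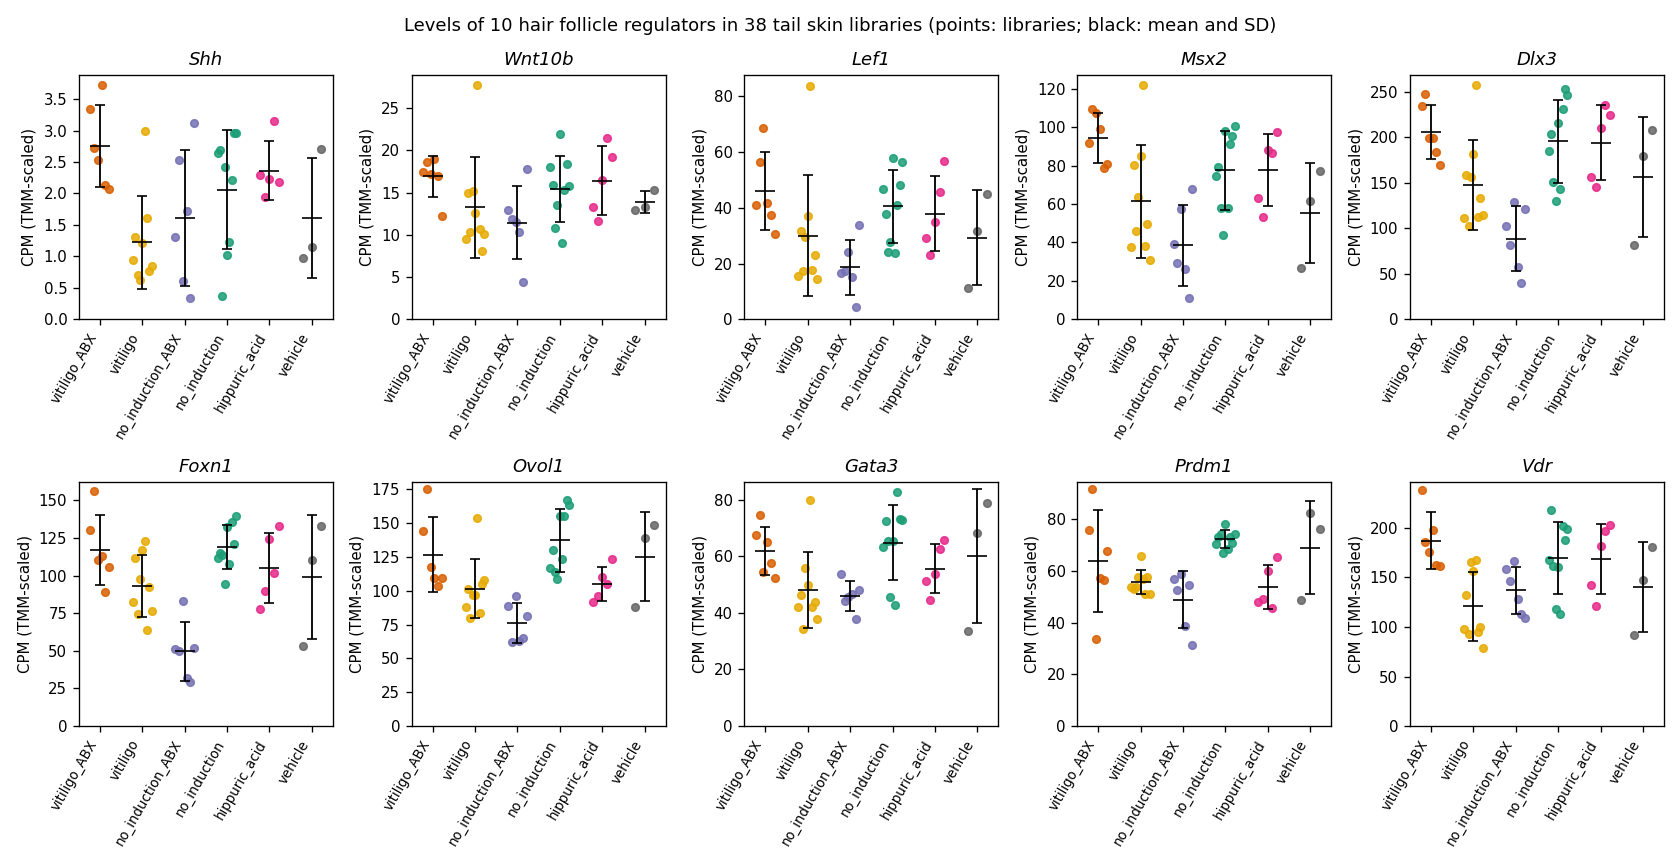
CPM of each regulator in each of 38 libraries (points), with the mean and SD of each group in black, the vertical axes starting at 0. The no_induction_ABX libraries of Foxn1 lie between 29.6 and 83.5 CPM, below all 9 no_induction libraries, and vitiligo 001 stands above the other vitiligo libraries for Lef1 at 83.8 CPM.

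Some libraries stood apart. Transcripts of the gut genes Sis and Alpi were present in vitiligo 000 and 260, no_induction 011 and 012 and vehicle 001, and Y-linked transcripts in the last 3 of these. The vitiligo_ABX libraries 001 to 003 had 19327 to 22860 CPM of summed keratinocyte markers, and 004 to 006 had 13317 to 13497. On the first principal component the 17 libraries given ABX or hippuric acid had positive scores and the other 21 negative ones. The vitiligo_ABX libraries were split, with 001 to 003 at 2.98, 0.24 and 2.48 and 004 to 006 at 21.1, 29.7 and 25.6. The highest score of the other 21 was -4.18, in no_induction 001. Any cohort difference behind the signs, which the labels do not give, cannot be told apart from these treatments. The split within vitiligo_ABX was not tested. Markers of keratinocytes and of hair were present in every group. Summed markers of keratinocytes (9 of the 10 listed were in the table) ran from 12040 to 46885 CPM over all libraries. Those of hair matrix and shaft (7 of the 8 listed) ran from 1076 to 13950 CPM. No listed marker of any cell type had 0 counts in all libraries.

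ABX without vitiligo induction went with lower levels of 7 of the 10 regulators, all of them transcription factors, by the edgeR quasi-likelihood test at an adjusted p under 0.05. Neither ligand was called. Of 13971 genes tested, 15.8% were lower and 15.4% higher, and the median log2 fold change was -0.70 over the 10 regulators and 0 over all genes. Foxn1, Dlx3, Ovol1 and Prdm1 did not overlap between the groups, where 4.43% of all genes tested lay lower in this way. Summed adipocyte markers were 285 to 691 CPM in no_induction_ABX and 618 to 2318 in no_induction. With their mean log2 level in the model, Msx2 and Lef1 were no longer called (-1.36 and -1.30, edgeR adjusted p = 0.131 and 0.172) and Vdr was (-1.0, edgeR adjusted p = 0.0123). Fewer follicle cells of a kind and less RNA per cell cannot be told apart in bulk skin.

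Foxn1 had 29.6, 50.5 and 83.5 CPM as lowest, median and highest of the no_induction_ABX libraries, against 94.2, 115 and 139 in no_induction. All 6 ABX libraries were below every no_induction library, and the log2 fold change was -1.25 ± 0.18 (SE, edgeR adjusted p = 0.00014). Dlx3 had 40.2, 92.0 and 128.6 CPM in no_induction_ABX, against 129.5, 203 and 253 in no_induction, with no overlap and a log2 fold change of -1.13 ± 0.23 (edgeR adjusted p = 0.00206). Msx2, which acts upstream of Foxn1 in the shaft, had 10.9, 34.2 and 67.7 CPM in no_induction_ABX, against 43.8, 79.1 and 101 in no_induction. The highest 2 ABX libraries reached into the no_induction range, and the change was -1.0 ± 0.31 (edgeR adjusted p = 0.0245). That call was lost without no_induction_ABX 004 or 002 (edgeR adjusted p up to 0.0578). Lef1 had 4.28, 17.1 and 33.8 CPM in no_induction_ABX, against 23.9, 41.1 and 57.9 in no_induction, a change of -1.11 ± 0.33 (edgeR adjusted p = 0.02), and 4 of 6 ABX libraries lay below every no_induction library.

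Ovol1 had 61.9, 73.3 and 96.0 CPM in no_induction_ABX, against 108, 130 and 167 in no_induction (log2 fold change -0.84 ± 0.13, edgeR adjusted p = 0.000185). Prdm1 had 31.4, 53.7 and 59.0 CPM in no_induction_ABX, against 66.9, 73.3 and 78.4 in no_induction (-0.55 ± 0.11, edgeR adjusted p = 0.00145). In both genes all 6 ABX libraries were below every no_induction library. Gata3 had 37.7, 46.2 and 53.7 CPM in no_induction_ABX, against 42.9, 65.5 and 82.9 in no_induction (-0.48 ± 0.13, edgeR adjusted p = 0.00882), and 1 of 6 ABX libraries lay below every no_induction library. The other 3 were not called: Wnt10b stood at -0.42 ± 0.23, Shh at -0.35 ± 0.44 and Vdr at -0.30 ± 0.14 (edgeR adjusted p = 0.18, 0.571 and 0.122). Vdr was called without no_induction 005 or 012 (edgeR adjusted p = 0.0481 at the lowest).

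The hair genes around them were lower as well. Of 38 hair shaft and inner root sheath genes other than Krtap, 33 were lower and 0 higher, with a median log2 fold change of -1.34. Krt36, a hair keratin, changed by -1.57 ± 0.20 (edgeR adjusted p = 4.13e-05). Among the other hair and epidermal transcription factors 12 of 36 were lower and 0 higher, led by Tfap2c (-0.72 ± 0.08, edgeR adjusted p = 1.45e-05), Elf5 (-1.54 ± 0.21) and Sox21 (-1.05 ± 0.16), the last a factor of the hair cuticle. Of 32 WNT pathway genes 11 were lower and 5 higher, and the ligand gene Wnt3 changed by -0.91 ± 0.10 (edgeR adjusted p = 8.42e-06) and the receptor gene Fzd10 by -1.06 ± 0.12. In the Hedgehog pathway 1 of 14 was lower and 4 higher, Gli2, a transcriptional effector, by 0.42 ± 0.12 (edgeR adjusted p = 0.0131). Of 26 BMP, EDAR and FGF genes 4 were lower and 7 higher, and of 12 NOTCH genes 2 were lower and 3 higher.

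With ABX in both groups, vitiligo induction went with higher levels of 6 of the 10 regulators. Of 13876 genes, 3.72% were higher and 1.25% lower, and the median log2 fold change was 0.77 over the regulators and 0.01 over all genes. Foxn1 had 89.0, 112 and 156 CPM in vitiligo_ABX, against 29.6, 50.5 and 83.5 in no_induction_ABX, with no overlap (1.25 ± 0.23, edgeR adjusted p = 0.0108). Dlx3 had 169, 199 and 248 CPM in vitiligo_ABX, against 40.2, 92.0 and 129 in no_induction_ABX (1.22 ± 0.24, edgeR adjusted p = 0.0147). Ovol1 had 104, 114 and 175 CPM in vitiligo_ABX, against 61.9, 73.3 and 96.0 in no_induction_ABX (0.75 ± 0.15, edgeR adjusted p = 0.0134). In these 3 genes and in Msx2 all 6 vitiligo_ABX libraries were above every no_induction_ABX library, which held for 2.16% of all genes tested. Summed adipocyte markers were 401 to 1389.5 CPM in vitiligo_ABX and 285 to 691 in no_induction_ABX. With the adipocyte level in the model Foxn1 was the 1 regulator called (1.25, edgeR adjusted p = 0.0373), and the other 5 had edgeR adjusted p-values from 0.0514 for Vdr to 0.138 for Msx2.

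Msx2 had 78.6, 95.5 and 109 CPM in vitiligo_ABX, against 10.9, 34.2 and 67.7 in no_induction_ABX (1.31 ± 0.34, edgeR adjusted p = 0.0458). Lef1 had a change of the same size, 1.32 ± 0.37, and was not called (edgeR adjusted p = 0.0608), with 5 of 6 vitiligo_ABX libraries above every no_induction_ABX library. It was called without no_induction_ABX 006 or 005 (edgeR adjusted p = 0.0278 and 0.0392). Gata3 changed by 0.44 ± 0.10 (edgeR adjusted p = 0.0267) and Vdr by 0.46 ± 0.13 (edgeR adjusted p = 0.0469). Wnt10b at 0.58 ± 0.24, Shh at 0.79 ± 0.40 and Prdm1 at 0.40 ± 0.21 were not called (edgeR adjusted p = 0.182, 0.274 and 0.304).

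The calls of Msx2, Gata3 and Vdr were each lost without any 1 of several libraries, while their log2 fold changes stayed positive. Over all omissions of 1 library these ran from 1.11 to 1.55 for Msx2, 0.37 to 0.48 for Gata3 and 0.38 to 0.52 for Vdr. Msx2 was lost without vitiligo_ABX 001, 002, 003, 004, 005 or 006 or without no_induction_ABX 001, 002 or 004 (edgeR adjusted p up to 0.117). Gata3 was lost without vitiligo_ABX 001, 002 or 004 or no_induction_ABX 002, 003, 004 or 005 (up to 0.0828), and Vdr without vitiligo_ABX 001, 002, 003 or 004 or no_induction_ABX 002, 004, 005 or 006 (up to 0.122). Without vitiligo_ABX 001 to 003 together, none of the 10 was called, and Foxn1 changed by 1.05 (edgeR adjusted p = 0.0857) and Dlx3 by 1.05 (edgeR adjusted p = 0.122). In that fit 452 genes were called, against 689 with all libraries. At an unadjusted p under 0.05, 2889 genes passed with all libraries.

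Among the shaft and sheath genes 16 of 37 were higher and 0 lower, with Vsig8 at 2.42 ± 0.52 (edgeR adjusted p = 0.0222) and Psors1c2 at 1.59 ± 0.24 (edgeR adjusted p = 0.00521). Of 36 other hair and epidermal transcription factors 6 were higher and 0 lower, led by Elf5 (1.56 ± 0.24, edgeR adjusted p = 0.00607). The WNT list had 6 of 32 higher and 1 lower, with the ligand gene Wnt3a at 1.19 ± 0.20 (edgeR adjusted p = 0.00758). In the BMP, EDAR and FGF list 1 of 26 was higher, Bambi at 1.03 ± 0.20 (edgeR adjusted p = 0.0146). In the NOTCH list 2 of 12 were higher, the target Hes1 at 0.62 ± 0.10 and the ligand gene Jag1 at 0.48 ± 0.10 (edgeR adjusted p = 0.00758 and 0.0148). None of 14 Hedgehog genes was called in either direction by edgeR, the smallest adjusted p being 0.124 for Sufu and 3 having an unadjusted p under 0.05.

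The interaction asks whether induction went with another change under ABX than without it. It was fitted over the 30 libraries of 4 groups as the log2 fold change of induction with ABX minus that without ABX, and was positive for all 10 regulators and called for 8. Of 14310 genes, 6.68% were called positive and 4.77% negative, with a median of 1.32 over the regulators and -0.03 over all genes. Foxn1 had 1.58 ± 0.24 (edgeR adjusted p = 0.000397), rank 11 of all genes by p, and Ovol1 1.15 ± 0.20 (edgeR adjusted p = 0.000654), rank 40. The other 6 called were Dlx3 at 1.60 ± 0.30, Msx2 at 1.62 ± 0.41, Lef1 at 1.72 ± 0.50, Gata3 at 0.84 ± 0.21, Prdm1 at 0.74 ± 0.19 and Vdr at 0.92 ± 0.23. Their edgeR adjusted p-values ran from 0.00135 for Dlx3 to 0.0228 for Lef1.

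Wnt10b (0.76 ± 0.33, edgeR adjusted p = 0.133) and Shh (1.49 ± 0.55, edgeR adjusted p = 0.0737) were not called, and both were called without vitiligo 001 (edgeR adjusted p = 0.0183 and 0.0181). Shh was also called without no_induction 003 or no_induction_ABX 006 (edgeR adjusted p up to 0.0369). Without vitiligo_ABX 001 to 003, 4 of 10 were called: Foxn1 at 1.39, Dlx3 at 1.45, Ovol1 at 0.92 and Prdm1 at 0.67 (edgeR adjusted p = 0.0058, 0.0186, 0.0113 and 0.0131). Without the libraries that held gut transcripts Lef1 stood at 1.6 (edgeR adjusted p = 0.057).

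The interaction also reached 31 of 38 shaft and sheath genes, all positive, with a median of 2.07. Psors1c2 had 1.92 ± 0.29 (edgeR adjusted p = 0.000397) and the hair keratin gene Krt86 2.49 ± 0.49 (edgeR adjusted p = 0.00192). Of 36 other transcription factors 8 were positive and 0 negative, Hoxc13, which activates hair keratin genes, at 1.25 ± 0.24 (edgeR adjusted p = 0.0014). In the WNT list 10 of 32 were positive and 1 negative, with Fzd10 at 1.27 ± 0.20 (edgeR adjusted p = 0.000423). In the BMP, EDAR and FGF list 3 of 26 were positive and 1 negative. In the NOTCH list 4 of 12 were positive, and in the Hedgehog list 0 of 14 were called by edgeR, 4 having an unadjusted p under 0.05. Gli1 stood at 0.55 ± 0.23 (edgeR adjusted p = 0.117). Summed adipocyte markers were 401 to 1389.5 CPM in vitiligo_ABX, 3106 to 9269 in vitiligo, 285 to 691 in no_induction_ABX and 618 to 2318 in no_induction. When that level was added to the model, 3 regulators had an interaction past the threshold (Foxn1, Dlx3 and Ovol1).

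**Figure D2:**
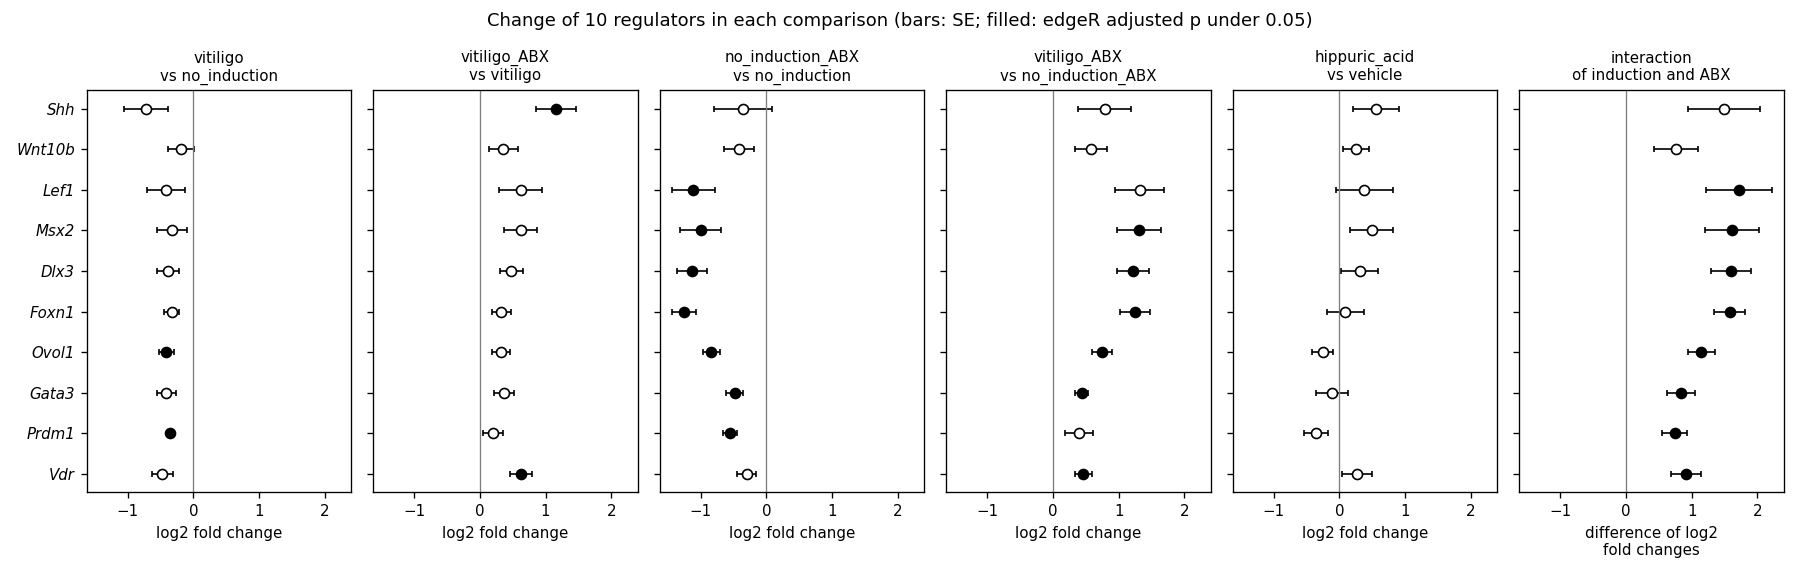
Log2 fold change of each regulator in 5 comparisons and, at the right, the interaction of induction and ABX, with bars of 1 SE, and filled points where the edgeR adjusted p lay under 0.05. The shift is to the left in no_induction_ABX against no_induction and to the right in vitiligo_ABX against no_induction_ABX, and the interaction of Lef1 reaches 1.72.

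Vitiligo induction without ABX went with lower levels of Ovol1 and Prdm1, the 2 regulators called. Of 13826 genes, 2.47% were lower and 5.27% higher, and the median log2 fold change was -0.40 over the regulators and 0.01 over all genes. Prdm1 had 51.0, 53.9 and 65.8 CPM as lowest, median and highest of the vitiligo libraries, against 66.9, 73.3 and 78.4 in no_induction. The groups did not overlap, all 9 vitiligo libraries lying below every no_induction library as in 0.0796% of all genes tested, and the log2 fold change was -0.35 ± 0.05 (edgeR adjusted p = 0.000332). The SD of Prdm1 was 4.59 CPM in vitiligo and 3.46 CPM in no_induction, against 19.7 CPM in vitiligo_ABX.

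Ovol1 had 79.9, 97.0 and 154 CPM in vitiligo, against 108, 130 and 167 in no_induction (-0.41 ± 0.11, edgeR adjusted p = 0.0309), and 8 of 9 vitiligo libraries were below every no_induction library. Its call was lost without vitiligo 000, 006, 047 or 260 or no_induction 011, 021, 022 or 023 (edgeR adjusted p up to 0.0687), and without the 4 libraries of the pair that held gut transcripts (-0.39, edgeR adjusted p = 0.13). The other 8 had negative values between -0.19 (Wnt10b) and -0.72 (Shh). Vdr had -0.47 ± 0.16 (edgeR adjusted p = 0.0732), with 9 of 9 vitiligo libraries below the no_induction mean. For the other 7 this held in 6 to 8 of 9 libraries, and the exception common to them was vitiligo 001.

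Vitiligo 001 was the highest vitiligo library for 9 of the 10 regulators, with 83.8 CPM of Lef1 where the other 8 had 14.4 to 37.2. Without it 8 regulators were called lower. Lef1 was then at -0.77 (edgeR adjusted p = 0.0252), Dlx3 at -0.52 (0.0209), Gata3 at -0.53 (0.00736) and Shh at -0.99 (0.0376), and the number of genes called went to 2571, against 1070 with all libraries. Foxn1 was also called without no_induction 005 or vitiligo 063, Gata3 without no_induction 005 or 012, and Vdr without vitiligo 062 or no_induction 005 or 012. The adipocyte marker sums of the 2 groups did not overlap, and once that level entered the model edgeR called 0 regulators and 0 genes of the table, Prdm1 standing at -0.26. Their part in these values was not tested further.

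Beside them, 5 of 38 shaft and sheath genes were lower and 0 higher, among them Crym (-0.94 ± 0.25, edgeR adjusted p = 0.0271) and the inner root sheath keratin gene Krt26 (-1.08 ± 0.30, edgeR adjusted p = 0.0334). Of 35 other transcription factors 3 were lower, Tfap2c, Tfap2a and Bcl11b, at -0.41 ± 0.10, -0.45 ± 0.12 and -0.37 ± 0.10 (edgeR adjusted p = 0.0197, 0.0233 and 0.0353). In the WNT list 3 of 32 were lower, Fzd10, Fzd6 and Sfrp2. In the BMP, EDAR and FGF list Fgf22 was lower and Id3 higher, and of 14 Hedgehog genes edgeR called 0, the smallest adjusted p being 0.0896 for Disp1 and 4 having an unadjusted p under 0.05. The NOTCH list had 1 of 12 lower, the receptor gene Notch1 at -0.38 ± 0.11 (edgeR adjusted p = 0.0403).

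ABX in mice with vitiligo induction went with higher Shh and Vdr. Of 14014 genes, 5.06% were higher and 8.05% lower, and the median was 0.42 over the regulators and 0.02 over all genes. Its 9 vitiligo libraries also served in the comparison with no_induction, and its 6 vitiligo_ABX libraries in the comparison under ABX. Shh had 2.07, 2.63 and 3.72 CPM in vitiligo_ABX, against 0.619, 0.944 and 2.999 in vitiligo. Only vitiligo 001 reached into the vitiligo_ABX range, and the log2 fold change was 1.16 ± 0.30 (edgeR adjusted p = 0.0179). Vdr had 161, 181 and 239 CPM in vitiligo_ABX, against 79.2, 100 and 167 in vitiligo (0.63 ± 0.17, edgeR adjusted p = 0.0198). Summed adipocyte markers did not overlap between these groups, at 401 to 1389.5 CPM in vitiligo_ABX and 3106 to 9269 in vitiligo. With that level in the model neither gene was called, Shh standing at 1.02 (edgeR adjusted p = 0.896) and Vdr at -0.17 (0.965), and 1 gene of the whole table was. Their part in these values was not tested further.

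All other regulators had positive values, from 0.20 for Prdm1 to 0.62 for Msx2 and Lef1, and were not called. Without vitiligo 001 the count of regulators called was 8, with Lef1 at 0.98 (edgeR adjusted p = 0.00864) and Wnt10b at 0.57 (0.0122). The number of genes called over the table was then 2803, against 1837 with all libraries. Prdm1 was called without vitiligo_ABX 003 (0.33, edgeR adjusted p = 0.0477). Without vitiligo_ABX 001 to 003 none was called, Shh standing at 1.1 (edgeR adjusted p = 0.0741) and Vdr at 0.52 (0.11). Without vitiligo 000 and 260, which held gut transcripts, Vdr stood at 0.55 (edgeR adjusted p = 0.0736). The genes next to Shh in its pathway were higher in 3 of 14: the effector gene Gli1 by 0.73 ± 0.14 (edgeR adjusted p = 0.00261), the receptor and target gene Ptch1 by 0.52 ± 0.12 and Gli2 by 0.67 ± 0.16. Shaft and sheath genes were higher in 7 of 38 and lower in 3. In the WNT list 9 of 32 were higher and 2 lower, with Fzd7 at 0.69 ± 0.12 (edgeR adjusted p = 0.00159). The NOTCH and the BMP, EDAR and FGF lists each had 3 genes higher and 0 lower, and the other transcription factors 5 of 36 higher and 1 lower.

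Hippuric acid in wild type mice was set against its vehicle, and edgeR called 0 of the 10 regulators, with 0 of 10 at an unadjusted p under 0.05. Of 14097 genes, 5.48% were higher and 8.29% lower, and 4247 had an unadjusted p under 0.05. DESeq2 and limma-voom called none of the 10 either. Foxn1 had 77.7, 89.8, 124, 102 and 133 CPM in the 5 hippuric_acid libraries, against 53.2, 110 and 133 CPM in the 3 vehicle libraries. The groups overlapped and the log2 fold change was 0.09 ± 0.28 (edgeR adjusted p = 0.859). Prdm1 had 48.2, 49.1, 60.2, 45.8 and 65.4 CPM in hippuric_acid, against 48.6, 82.3 and 76.3 CPM in vehicle, where vehicle 001 was low (-0.36 ± 0.18, edgeR adjusted p = 0.191).

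Vehicle 001 was the lowest vehicle library for every one of the 10 regulators. Without it Prdm1 (-0.54, edgeR adjusted p = 0.0201) and Ovol1 (-0.43, edgeR adjusted p = 0.0264) were called lower in hippuric_acid. That fit had 2 vehicle libraries and called 2786 genes of the table, against 1940 with all libraries, so calls were not particular to these regulators. Shh had 2.30, 1.94, 2.23, 3.16 and 2.18 CPM in hippuric_acid, against 0.980, 1.15 and 2.71 CPM in vehicle (0.56 ± 0.35, edgeR adjusted p = 0.318). In its pathway, 4 of 14 Hedgehog genes were higher, Gli2 by 0.69 ± 0.14, Gli1 by 0.79 ± 0.18 and Ptch1 by 0.48 ± 0.13 (edgeR adjusted p = 0.0108, 0.0163 and 0.0318). Of 36 other transcription factors 4 were higher and 5 lower, with Msx1, a relative of Msx2, at 1.08 ± 0.17 (edgeR adjusted p = 0.00306) and Grhl3, a factor of the epidermal barrier, at -0.88 ± 0.14 (edgeR adjusted p = 0.00277). The WNT list had 3 of 32 higher and 2 lower, the BMP, EDAR and FGF list 4 of 26 higher, the NOTCH list 1 of 12 higher, and the shaft and sheath list 1 of 37 higher and 5 lower. That 1 is Msx1, the 1 gene held by both this list and that of the other transcription factors. Summed keratinocyte markers were 12040 to 15624 CPM in hippuric_acid and 31056 to 44451 CPM in vehicle, and summed adipocyte markers 388 to 1481 CPM in hippuric_acid and 2652 to 3451 CPM in vehicle. With the adipocyte level in the model 3 genes of the whole table were called and none of the 10. The part of either list in these values was not tested further.

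The regulators varied together from library to library. With each library's log2(CPM + 1) taken as its deviation from the mean of its group, all 36 pairs without Prdm1 had a positive Pearson r, and 33 of them had an adjusted permutation p under 0.05. The tightest were the homeobox pair Dlx3 and Msx2 at r = 0.95 (Spearman's rho 0.94), Msx2 and Lef1 at 0.94 (rho 0.92) and Dlx3 and Lef1 at 0.91 (rho 0.87). For each of these 3 pairs the permutation p was 1e-05, the smallest that 100000 permutations within groups can give, and the adjusted p over 45 pairs was 2.5e-05. Foxn1 and Dlx3 had r = 0.88, Lef1 and Wnt10b 0.86, and Gata3 and Vdr 0.85. Pairs of other genes were not counted in this way, so the 33 called pairs do not set the regulators apart.

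The libraries without ABX or hippuric acid and those given either had opposite signs on the first principal component. Between these 2 sets r was close for some pairs and not for others. Dlx3 and Msx2 had r = 0.95 in the 21 libraries without ABX or hippuric acid and 0.94 in the other 17, and Lef1 and Wnt10b 0.81 and 0.92. Msx2 and Vdr had 0.88 in the 21 libraries and 0.43 in the 17, Lef1 and Vdr 0.82 and 0.41, Lef1 and Ovol1 0.81 and 0.51, and Ovol1 and Shh 0.50 and -0.03. Without the 2 libraries farthest from the median of the first gene, r was 0.93 for Dlx3 and Msx2 and 0.76 for Lef1 and Wnt10b. Shh, the scarcest gene, had r between 0.24 (Foxn1) and 0.63 (Wnt10b) with the others apart from Prdm1.

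Prdm1 had 4 of its 9 pairs called by r and 6 by rho. By r these were with Foxn1 (r = 0.51), Ovol1 (0.45), Vdr (0.44) and Gata3 (0.39), and with Lef1 it had r = 0.06 (permutation p = 0.746, adjusted 0.763). By rho Dlx3 (0.44, adjusted permutation p = 0.0148) and Msx2 (0.40, 0.0235) were called as well, and Lef1 had 0.27 (0.146). Between the 2 sets its values were unequal: Prdm1 and Lef1 had r = 0.63 in the 21 libraries and -0.26 in the 17, and Prdm1 and Msx2 had 0.67 and -0.12. The differences in r between the 2 sets were not tested for these or the other pairs.

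Marker lists of hair cells and of the cell cycle gave the highest r with the regulators. The mean level of hair matrix and shaft markers had r = 0.93 with Dlx3, 0.91 with Msx2, 0.86 with Foxn1 and 0.81 with Lef1, and 8 of 10 regulators were called positive over 110 relations adjusted together. Shh at 0.43 and Prdm1 at 0.42 were not. The cell cycle list was called positive with 9 of 10, highest for Wnt10b at r = 0.86 (0.90 in the 21 libraries and 0.81 in the 17), and stood at -0.01 with Prdm1. Vdr was the 1 regulator called with hair follicle stem cell markers, at r = 0.64. B and plasma cell markers were called negative with 5, from Msx2 at -0.37 to Gata3 at -0.60, and Prdm1, which also drives plasma cell differentiation, had -0.09 with them. These markers were scarce, their sum running from 17.6 CPM (a vitiligo_ABX library) to 89.4 CPM (a vitiligo library). Dermal papilla and keratinocyte lists were called with 0 of the 10, and with 0 at an unadjusted p under 0.05, and the gastrointestinal and skeletal muscle lists with 0, and with 1 each at an unadjusted p under 0.05. The remaining calls were Foxn1 with T cells (-0.39), Vdr with sebocytes (0.47) and Vdr with adipocytes (-0.51). The part of any cell type in these relations was not tested. Calls with these lists were not counted over all genes, so no background share stands beside them.

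**Figure D3:**
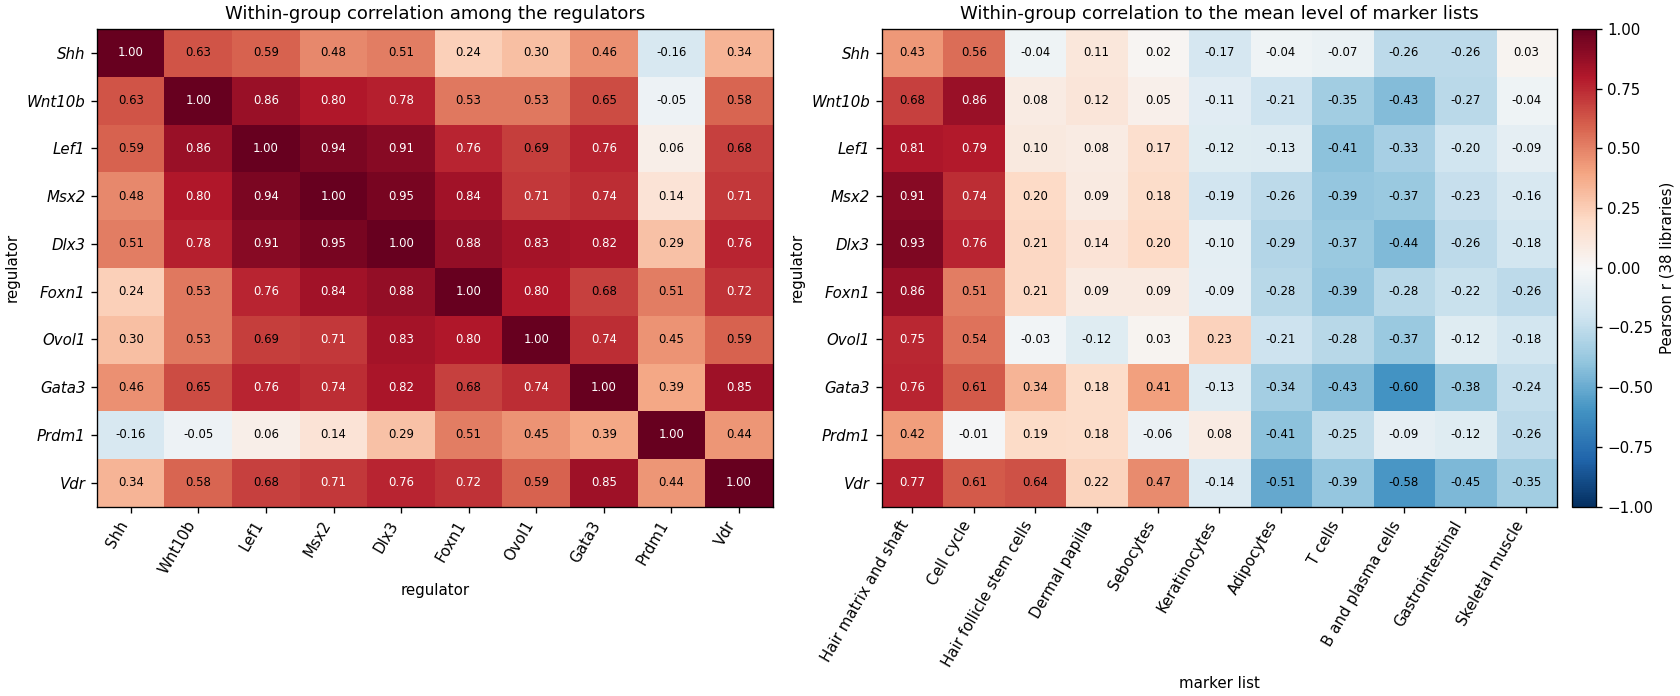
Pearson r of deviations from group means over 38 libraries, among the regulators at the left and between regulators and the mean log2 level of marker lists at the right. Msx2, Dlx3 and Lef1 form the darkest block (0.91 to 0.95), the Prdm1 row is pale beside Lef1 at 0.06, and the cell cycle column is highest at Wnt10b with 0.86.

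Searched among 13376 genes with a mean of at least 1 CPM, the genes most alike the regulators by within-group r over 38 libraries were as follows. Msx2 was most alike Golga7b, Bhlha9 and the hair keratin gene Krt32, each at r = 0.95, and Lef1 was most alike Mtcl1 (0.95) and the hair keratin gene Krt35 (0.94). Dlx3 was most alike Sp6 (0.95), a zinc finger gene of skin appendages. Foxn1 was most alike Psors1c2 (0.94) and Capn12 (0.93). Wnt10b was most alike Ccna2 (0.88), which encodes cyclin A2, and Vdr was most alike Ppfia1 and Cdh3, P-cadherin, both at 0.93. Prdm1 was most alike Myo6 (0.93). Ovol1 had Gm14137 (0.91), Gata3 had Vangl2 (0.91), a planar polarity gene, and Shh had Timeless (0.71). The highest r of Shh, which had the lowest counts of the 10, was below those of the other 9.

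The summed Krtap level was lowest in no_induction_ABX and highest in no_induction by group mean. It was 3939, 6340.2 and 9577 CPM as lowest, median and highest in no_induction_ABX, against 17531, 20808 and 25606 CPM in no_induction. These groups did not overlap, with a difference of -1.77 in mean log2 (exact permutation test, two-sided p = 0.0002, the smallest this design allows, adjusted p = 0.001 over 5 pairs). It was 8811, 16032 and 23728 CPM in vitiligo_ABX, against the same no_induction_ABX values, a difference of 1.32 (exact permutation p = 0.00433, adjusted p = 0.0108). It was 10983, 16352 and 25461 CPM in vitiligo, against the no_induction values, a difference of -0.35 (exact permutation p = 0.0217, adjusted p = 0.0362). That last call was lost without any 1 of 10 libraries (vitiligo 000, 001, 039, 047 or 062 or no_induction 001, 012, 021, 022 or 023, adjusted p up to 0.0719) and with RLE size factors (-0.33, adjusted p = 0.0538). The differences were -0.09 for vitiligo_ABX against vitiligo and -0.31 for hippuric_acid against vehicle (exact permutation, adjusted p = 0.699 and 0.312).

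Within groups, Prdm1 was the regulator whose level went with the summed Krtap level past the threshold. The model held the group and the log2 summed Krtap level over 38 libraries. In it 1.1% of 14720 genes had a positive slope past the threshold and 0.0543% a negative one. The positive ones included 32 of the 46 Krtap genes, each of which is part of the sum it was tested against. Prdm1 had a slope of 0.50 ± 0.08 log2 units per log2 unit of Krtap (edgeR adjusted p = 0.000353, rank 41 of all genes). It was called in every fit that left out 1 library, with slopes of 0.41 to 0.54. Foxn1 had 0.44 ± 0.14 (edgeR adjusted p = 0.115), Ovol1 0.26 ± 0.11 (0.301), Dlx3 0.23 ± 0.18 (0.655) and Vdr 0.17 ± 0.14 (0.686). Gata3 and Msx2 stood at 0.11 and 0.09, Lef1 at -0.16 ± 0.29, Wnt10b at -0.24 ± 0.18 and Shh at -0.31 ± 0.31 (edgeR adjusted p = 0.812, 0.92, 0.887, 0.648 and 0.754).

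As a correlation, Prdm1 had r = 0.73 (permutation p = 5e-05, adjusted p = 0.0139 over 13376 genes) and rho = 0.70 (permutation p = 0.00016, adjusted p = 0.0293). Foxn1 had r = 0.49 (permutation p = 0.00851, adjusted p = 0.244) and rho = 0.47, and Lef1 had r = -0.02 and rho = 0.01. Without the 2 libraries farthest from the median Krtap level, r was 0.68 for Prdm1 and 0.52 for Foxn1. By group, Prdm1 had r = 0.89 in vitiligo_ABX, 0.47 in vitiligo, 0.88 in no_induction_ABX and -0.15 in no_induction. It had 0.52 in the 21 libraries without ABX or hippuric acid and 0.82 in the other 17, and in the fit on the 21 libraries no regulator and 3 genes were called.

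**Figure D4:**
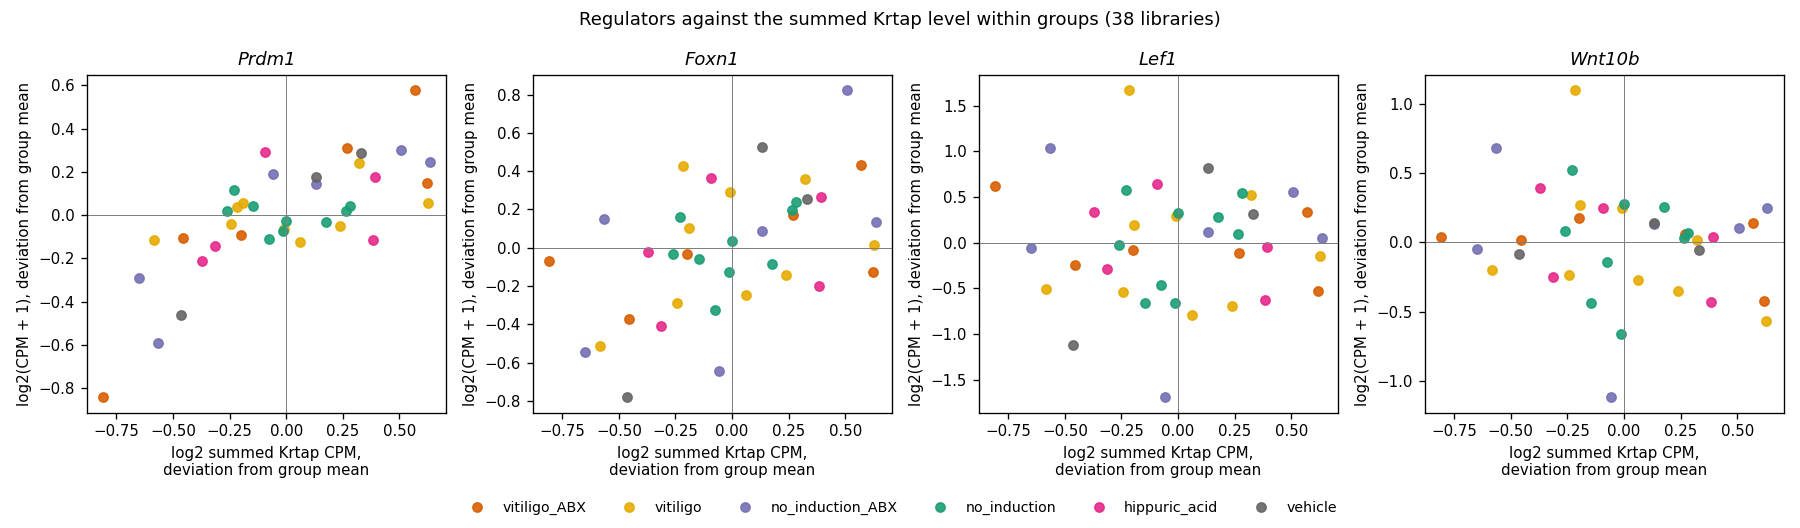
Deviation of log2(CPM + 1) from the group mean against the deviation of log2 summed Krtap CPM for 4 regulators, each point 1 of 38 libraries coloured by group. The points of Prdm1 rise along the diagonal (r = 0.73), those of Foxn1 less so (0.49), and those of Lef1 (-0.02) and Wnt10b (-0.19) do not.

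The sum joins Krtap genes that behaved differently, an observation made after the data were seen. The 11 most abundant of 46 Krtap genes made up 75.4% of the sum, with Krtap7-1 at 12.9%, Krtap3-1 at 10.5% and Krtap3-3 at 10.2%. Wnt10b had a negative within-group r with 9 of these 11, and Lef1 and Msx2 each with 8, while Prdm1 had a positive r with all 11. Over all 46 Krtap genes a negative r was called with 8 for Wnt10b, 3 for Lef1 and 2 for Msx2. Msx2 and Lef1 were called positive with the abundant Krtap8-1 (r = 0.66 and 0.51) and Krtap15 (0.56 and 0.40). Krtap3-3 had r = -0.58 with Wnt10b, -0.49 with Lef1 and -0.45 with Msx2, and 0.51 with Prdm1 (permutation p-values adjusted over 460 relations 0.00139, 0.0092, 0.0158 and 0.00996). Copies of Krtap genes are alike in sequence, so reads may be shared among them.

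Some scarcer Krtap genes stood at the other end, and others did not. Krtap6-3, at a mean of 39.6 CPM, had r = -0.16 with Msx2, and Krtap4-6, at 62.6 CPM, had 0.16. Over all 46 Krtap genes the median r with Msx2 was 0.32. Krtap17-1 and Krtap12-1 had the highest r with Msx2 of all 46. Krtap17-1, at a mean of 107 CPM, had r = 0.92 with Msx2, 0.89 with Dlx3 and 0.84 with Lef1, and 0.26 with Prdm1. Krtap12-1, at 106 CPM, had r = 0.92 with Msx2. For Msx2 these values were of like size in both sets of libraries: it had 0.91 with Krtap17-1 in the 21 libraries and 0.93 in the 17, and -0.50 and -0.38 with Krtap3-3. Prdm1 had 0.65 and 0.08 with Krtap17-1 and 0.02 and 0.81 with Krtap3-3, the 21 libraries standing before the 17 in each pair. The difference between these values was not tested.

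Counted over all 46 Krtap genes, Prdm1 was called positive with 35 and negative with 0, and those 35 held 86.0% of the summed Krtap CPM. Foxn1 was called positive with 34 and negative with 0, holding 51.6% of it. Lef1 was called positive with 15, holding 25.5%, and negative with 3, holding 27.6%. Wnt10b was called positive with 11, holding 5.35%, and negative with 8, holding 48.0%. Msx2 was called positive with 19, holding 28.3%, and negative with 2, holding 17.1%. Vdr was called positive with 32 and negative with 1, and Dlx3 with 23 and 1. Ovol1 was called positive with 25, Gata3 with 24 and Shh with 1, and each of these negative with 0. These counts were not made for genes outside the set. With the mean log2 level of Krtap genes in place of the sum, so that scarce and abundant Krtap genes weigh alike, 6 regulators were called positive: Foxn1 at a slope of 0.47, Dlx3 0.45, Vdr 0.37, Ovol1 0.29 and Gata3 0.29 besides Prdm1 at 0.38 (edgeR adjusted p from 0.000138 for Prdm1 to 0.0396 for Gata3). In that fit 1465 genes of the table were called, against 170 of 14720 with the sum.

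Krtap17-1 and Krtap3-3 both had their lowest mean in no_induction_ABX. Krtap17-1 averaged 31.9 ± 21.2 CPM in no_induction_ABX and 151 ± 60.8 CPM in no_induction (SD, n = 6 and 9). Krtap3-3 averaged 557 ± 142 CPM in no_induction_ABX and 2262 ± 353 CPM in no_induction. In the other 2 groups Krtap17-1 averaged 138 ± 34.3 CPM in vitiligo_ABX and 110 ± 58.2 CPM in vitiligo, while Krtap3-3 averaged 1106 ± 460.05 CPM in vitiligo_ABX and 2068 ± 859.6 CPM in vitiligo (SD, n = 6 and 9). These means carry no test.

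**Figure D5:**
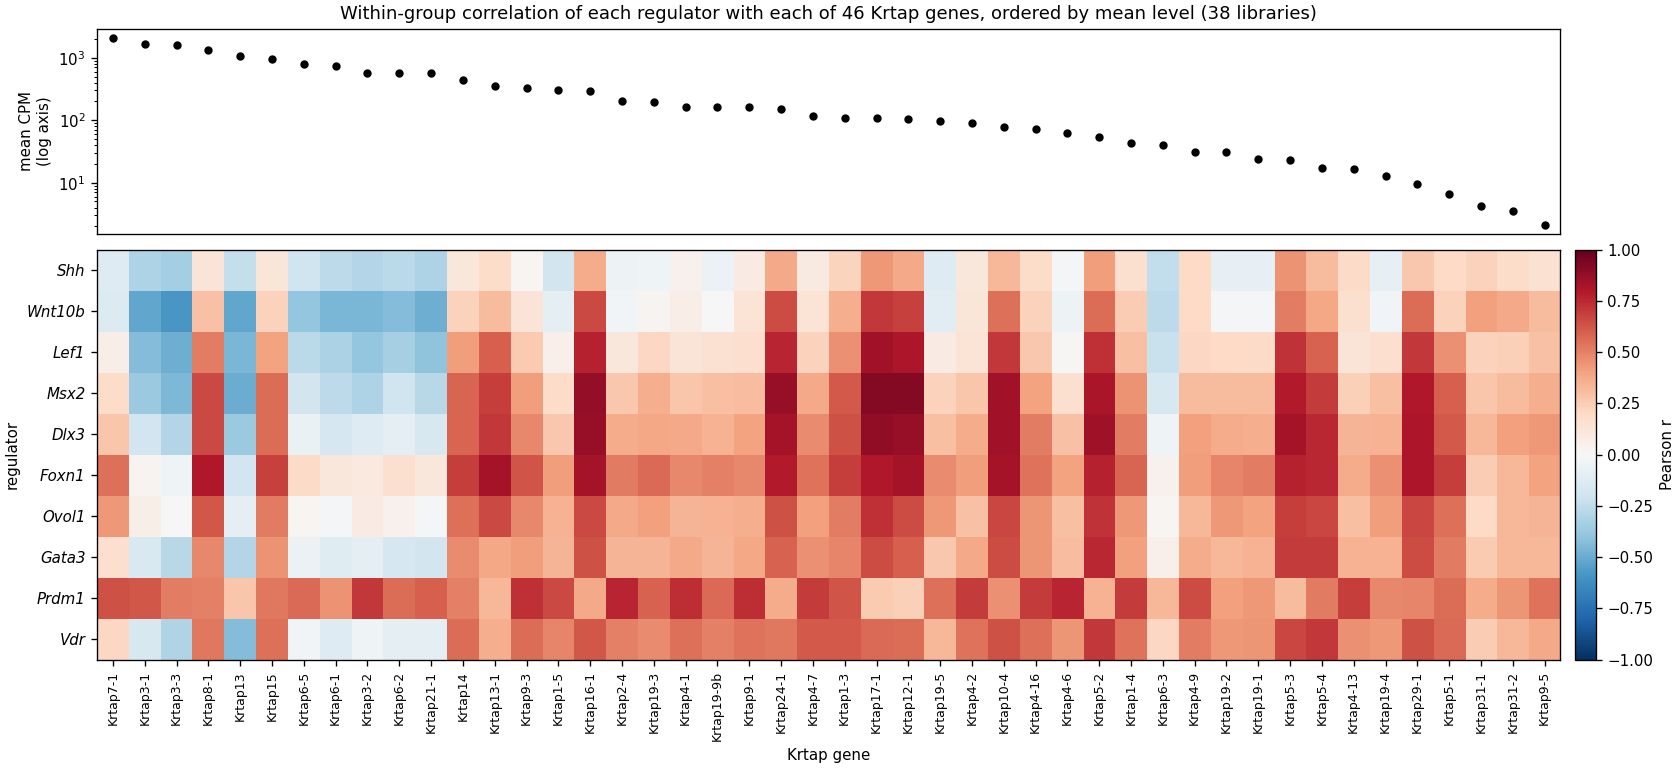
Mean CPM of 46 Krtap genes on a log axis (top), and below it the within-group Pearson r of each regulator with each of these genes over 38 libraries, red positive and blue negative. Most of the 11 abundant genes at the left are blue for Wnt10b, Lef1 and Msx2 (Krtap3-3 at -0.58, -0.49 and -0.45) and red for Prdm1, and Krtap17-1 is dark red for Msx2 at 0.92.

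The Krtap level was also entered as a covariate in the group comparisons. For no_induction_ABX against no_induction, vitiligo_ABX against no_induction_ABX and the interaction, 0 of 10 regulators were then called by edgeR, and 1, 2 and 3 genes of the whole table. Foxn1 stood at -0.32, 0.72 and 0.94 in these 3 fits. The Krtap sums of the first pair do not overlap, so in that fit the group and the covariate can hardly be told apart. Those of the second pair overlapped little, at 8811 to 23728 CPM in vitiligo_ABX and 3939 to 9577 CPM in no_induction_ABX. The same limit therefore bears on that fit and on the interaction, which holds these groups. For vitiligo against no_induction, Prdm1 stayed called at -0.31 (edgeR adjusted p = 0.00773), and for vitiligo_ABX against vitiligo Shh at 1.15 and Vdr at 0.63 did (edgeR adjusted p = 0.021 and 0.0247).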

How the data were processed

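Bulk RNA sequencing of mouse tail skin was deposited as 1 table of estimated counts per gene for 38 libraries, which the authors made with HISAT2, Bowtie2 2.2.8, StringTie 1.3.1 and DESeq2, per the submitters' processing notes, which give no role or order for these tools. The sources used here do not give the genome build, the annotation or the strand setting, so reads of overlapping or antisense genes cannot be told apart, and near-identical Krtap genes may share reads. Of 19220 rows, 1 incomplete and 1 without a symbol were left out. In 3107 genes some values were not whole, and all were rounded, which moved no library total by more than 22.1 counts.

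Each comparison was fitted with edgeR 4.0.16 (TMM, filterByExpr, robust quasi-likelihood F test) on the libraries of its groups, with Benjamini-Hochberg adjustment over all genes tested and a threshold of 0.05. Per-library values are TMM-scaled CPM, and levels per kilobase use exon unions of GENCODE M21. Correlations used log2(CPM + 1) as deviations from group means with 100000 permutations within groups, adjusted over 45 pairs, 110 marker relations, 460 relations to single Krtap genes, or 13376 genes for the summed Krtap level, where the first plan had been to adjust over the 10 regulators. Summed Krtap levels were compared by exact permutation tests, adjusted over 5 pairs of groups. DESeq2 1.42.0, limma 3.58.1 (voom with quality weights), RLE factors, other filters, covariates, a replicate block and the omission of each library were alternatives. R 4.3.3 and Python 3.11.15 (numpy 2.4.6, scipy 1.17.1, pandas 2.3.3) were used, and the fits were tested on simulated data.

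The regulators, the gene lists and the marker lists were chosen with earlier results of these data known. The 10 regulators were named in every comparison, and other genes only as 1 of the 3 with the smallest p in their list or the 3 most alike a regulator. Single Krtap genes and the marker-based omissions were examined after the data were seen. Same-numbered libraries of compared groups did not all deviate together (r from -0.2 to 0.39). Such values cannot settle whether the numbers pair the libraries, and the main fits left the numbers out.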

Additional observations from a re-analysis of the deposited data

Results flagged for a closer look

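Vitiligo 001 stood above the other 8 vitiligo libraries for 6 regulators by Dixon's test at the 95% level. Dlx3 passed narrowly, at a ratio of 0.494 against a critical value of 0.493. It had 257.7 CPM of Dlx3, where the others had 102.9 to 181 CPM, and 83.8 CPM of Lef1, where the others had 14.4 to 37.2 CPM. Ovol1 was at 153.8 CPM there and at 79.9 to 107.6 CPM in the others. Gata3 was at 79.7 CPM and at 34.3 to 56.0 CPM in the others. Wnt10b was at 27.8 CPM and at 8.05 to 15.2 CPM in the others, and Shh at 2.999 CPM and at 0.619 to 1.62 CPM in the others. Prdm1, by contrast, was highest in vitiligo 063, at 65.8 CPM, where the other vitiligo libraries had 51.0 to 57.8 CPM. In vitiligo_ABX, library 006 was lowest for Wnt10b at 12.2 CPM, where the others had 16.97 to 19.0 CPM. In all, 55 groups and measures were tested and 8 gave an outlying library, 6 of them vitiligo 001. Chance alone gives about 1 in 20 in separate tests. The regulators varied together within groups, so these tests are not separate and the 8 cannot be set against that rate.

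The log2 fold change of induction under ABX differed from that without ABX, by the edgeR interaction test, for 8 regulators: Foxn1 by 1.58, Dlx3 by 1.60, Msx2 by 1.62, Lef1 by 1.72, Ovol1 by 1.15, Gata3 by 0.84, Prdm1 by 0.74 and Vdr by 0.92. The cause of these differences was not tested.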

How the results depend on the processing

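RLE factors and other filters on low counts moved no count of called regulators by more than 1.5 times. The counts that did move are given here, beside 2 regulators called for vitiligo against no_induction, 2 for vitiligo_ABX against vitiligo, 7 for no_induction_ABX against no_induction, 6 for vitiligo_ABX against no_induction_ABX, 0 for hippuric_acid against vehicle, 8 for the interaction and 1 for the Krtap slope. DESeq2 called 5 for vitiligo against no_induction, voom 10 and a fit of all 38 libraries 4. Voom called 8 for vitiligo_ABX against vitiligo and 2 for the Krtap slope. With the Krtap level as a covariate the counts were 1 for vitiligo against no_induction, and 0 for no_induction_ABX against no_induction, for vitiligo_ABX against no_induction_ABX and for the interaction. With the adipocyte level they were 0 for vitiligo against no_induction, 0 for vitiligo_ABX against vitiligo, 1 for vitiligo_ABX against no_induction_ABX and 3 for the interaction. Without the libraries with Y-linked transcripts they were 4 for vitiligo against no_induction and 2 for hippuric_acid against vehicle. Without those with gastrointestinal transcripts they were 1 for vitiligo against no_induction, 1 for vitiligo_ABX against vitiligo and 2 for hippuric_acid against vehicle. Without vitiligo_ABX 001 to 003 they were 0 against vitiligo, 0 against no_induction_ABX and 4 for the interaction. The Krtap slope called 6 with the mean log2 Krtap level, 4 with no group factor and 0 in the 21 libraries, and the Krtap sum of vitiligo against no_induction stood at -0.33 with RLE factors. The causes were not tested.

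A replicate block rests on library numbers that are not known to pair the libraries. With it, 0 regulators were called for vitiligo_ABX against vitiligo (Lef1 -0.04, Wnt10b -0.15) and 4 for no_induction_ABX against no_induction. It gave 6 for vitiligo_ABX against no_induction_ABX and 0 for hippuric_acid against vehicle (Wnt10b -0.01). The groups vitiligo and no_induction share too few numbers, so the block could not be fitted there or for the interaction.

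Values that changed sign were mostly uncalled ones. With the adipocyte level, vitiligo against no_induction gave Foxn1 0.10, Dlx3 0.37, Msx2 0.63, Lef1 0.47, Gata3 0.21, Wnt10b 0.35 and Vdr 0.31. It gave Gata3 -0.06, Wnt10b -0.16, Prdm1 -0.38 and Vdr -0.17 for vitiligo_ABX against vitiligo, and Foxn1 -0.67, Dlx3 -0.24, Msx2 -0.31, Lef1 -0.55, Wnt10b -0.26 and Vdr -0.35 for hippuric_acid against vehicle. With the Krtap level, no_induction_ABX against no_induction gave Prdm1 0.24 and Vdr 0.33, vitiligo_ABX against no_induction_ABX gave Prdm1 -0.52, the interaction gave Prdm1 -0.11 and hippuric_acid against vehicle gave Gata3 0.01. Foxn1 in hippuric_acid against vehicle was -0.08 with voom, -0.19 without the Y-linked or the gastrointestinal libraries, and -0.19 or -0.01 without vehicle 001 or hippuric_acid 5, and Gata3 was 0.14 without vehicle 003. Over all omissions of 1 library Foxn1 ran from -0.19 to 0.38 there. Krtap slopes became 0.31, 0.13 and 0.10 for Lef1, Wnt10b and Shh with the mean log2 level, 0.32, 0.08 and 0.01 with no group factor, 0.13 for Lef1 with voom and 0.29 in the 21 libraries, -0.04 for Msx2 in the 17, and 0.0 for Msx2 without the gastrointestinal libraries or vehicle 001 (0.0 to 0.28 over all omissions of 1 library) and for Lef1 without no_induction_ABX 006.

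Leaving out each library in turn gave 1 to 8 called regulators for vitiligo against no_induction, 2 to 8 for vitiligo_ABX against vitiligo, 6 to 8 for no_induction_ABX against no_induction, 3 to 6 for vitiligo_ABX against no_induction_ABX, 0 to 2 for hippuric_acid against vehicle, 8 to 10 for the interaction and 1 to 1 for the Krtap slope. The log2 difference in summed Krtap ran from -0.43 to -0.28, from -0.22 to 0.07 (0.07 without vitiligo_ABX 003), from -1.90 to -1.64, from 1.19 to 1.48 and from -0.54 to -0.15 for the 5 pairs in that order. Genes called over the whole table numbered 1070, 1837, 4351, 689, 1940, 1639 and 170 in these 7 fits. They moved by over 1.5 times with voom (5894, 4399, 6567 and 1530 for the first 4, 4445 for the interaction), DESeq2 (1744 for vitiligo against no_induction, 1283 for vitiligo_ABX against no_induction_ABX), all 38 libraries (1683 and 2811 for the first 2), and the adipocyte level (0 for vitiligo against no_induction, 1 for vitiligo_ABX against vitiligo, 429 for vitiligo_ABX against no_induction_ABX, 3 for hippuric_acid, 317 for the interaction). They did so too with the Krtap level (439 for vitiligo against no_induction, 1, 2 and 3 as given above), the block (64 for vitiligo_ABX against vitiligo, 1436 for no_induction_ABX against no_induction, 879 for hippuric_acid), the gastrointestinal libraries left out (511 and 961 for the first 2) and vitiligo_ABX 001 to 003 left out (452 against no_induction_ABX). The Krtap slope had 1465 with the mean log2 level, 2467 with no group factor, 78 untransformed, 3 in the 21 libraries and 109 in the 17. Counts of Shh are too few for small changes to be detectable.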
